A study of Mus musculus with 9 samples.

Results

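The 9 genes described here, Clu, Ly6a, Anxa1, Il33, Il1rn, Msln, Krt7, Ccn1 and Ccn2, are genes of injury-induced or fetal-like intestinal epithelium, and were taken by symbol from the 78239 genes of a table of RNA-seq read counts, where each symbol matched 1 gene ID. The 9 libraries came from mice aged 8 weeks that carry Lgr5-2A-eGFP, an allele in which GFP is made together with Lgr5, the R-spondin receptor of intestinal stem cells. They form 3 groups of 3 libraries: colon GFP-high and colon GFP-negative, each from at least 30000 sorted cells, and small intestine, from at least 50000 sorted cells whose GFP fraction the labels do not give. The libraries are labelled epithelial cells, and no epithelial surface marker is named for the sort. The labels do not say whether replicates are separate animals, so p-values measure the spread between these libraries, which may be technical.

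When the gut epithelium is injured, surviving crypt cells can leave the adult stem cell programme for a while and turn on genes of the fetal gut. Signals for this switch include the transcriptional co-activators YAP and TAZ, which bind DNA through TEAD factors and whose best known targets are Ccn1 and Ccn2. Interleukin-33 and the other interleukin-1 family cytokines carry alarm signals from damaged barriers to immune cells. The labels name no injury, which does not show that the gut was unchallenged, and the values below describe the cells as sorted.

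The epithelial label was checked against markers. Epcam, which encodes an epithelial adhesion molecule, lay between 3017 and 6207 CPM in all 9 libraries (CPM is the count relative to the scaled library total). Markers of other cells were present at levels that differed between libraries and are given below, the highest being those of leukocytes in colon GFP-negative replicate 3, where Cd79a of B cells was 476 CPM. Lgr5 went against the label in 1 pair of colon libraries. It was 43.5, 0.958 and 73.0 CPM in the GFP-high colon libraries (replicates 1 to 3), 2.84, 62.1 and 6.28 CPM in the GFP-negative ones and 57.9, 119.7 and 209 CPM in the small intestinal ones. The libraries are named by their labels throughout, and every direction between the colon fractions rests on these, whereas the mean of both colon fractions against small intestine does not use them. Totals were 86621513 to 106673547 counts per library, at which 3 counts make 0.0232 to 0.0411 CPM.

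Promoter sequences of the reference genome were at hand for 5 of the 9 genes, with 8 transcription starts (RefSeq, GRCm38.p6). They are shown for 3 genes whose levels went different ways below, namely Il1rn, far higher in colon, and Il33 and Ccn1, which were not. Each is the stretch before an annotated start, 5′ to 3′, and ends short of any annotated exon. Capitals mark a match to GGAATG, the core of TEAD sites, or to TGANTCA, the AP-1 site, on either strand.
Il1rn, chr2:24336610-24336852, plus strand: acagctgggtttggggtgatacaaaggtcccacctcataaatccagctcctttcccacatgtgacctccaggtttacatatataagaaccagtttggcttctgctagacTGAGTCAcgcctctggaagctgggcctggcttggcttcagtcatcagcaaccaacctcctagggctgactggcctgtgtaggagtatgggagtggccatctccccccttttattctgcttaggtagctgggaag
Il33, chr19:29924863-29925112, plus strand: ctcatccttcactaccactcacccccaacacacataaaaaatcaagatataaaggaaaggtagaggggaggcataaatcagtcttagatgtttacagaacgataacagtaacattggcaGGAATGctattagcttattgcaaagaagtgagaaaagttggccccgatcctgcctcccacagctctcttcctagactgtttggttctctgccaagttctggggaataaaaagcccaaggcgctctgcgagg
Ccn1, chr3:145649986-145650235, minus strand: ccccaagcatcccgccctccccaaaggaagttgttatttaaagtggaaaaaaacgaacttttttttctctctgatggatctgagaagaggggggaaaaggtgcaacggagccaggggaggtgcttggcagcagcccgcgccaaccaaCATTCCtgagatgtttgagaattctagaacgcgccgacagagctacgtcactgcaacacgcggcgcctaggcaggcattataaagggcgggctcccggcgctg
GGAATG or its reverse complement CATTCC was present in the 250 bases before the start of Ccn1, at 103 to 98 bases before it, and of Il33, at 131 to 126 bases. It stood in 12.6% of all 32851 promoter windows of that length. The first Il1rn window held TGAGTCA at 141 to 135 bases before the start, and TGANTCA stood in 6.75% of windows. The window of Anxa1 lies within annotated exons and that of Krt7 mostly so, with 205 of its 250 bases, and neither is printed. Anxa1 held CATTCC at 236 to 231 bases, the third annotated start of Il1rn held GGAATG at 24 to 19 bases and an NF-kB match at 51 to 42 bases, the second start of Il33 held CATTCC at 107 to 102 bases, and Krt7 held none of the 5 motifs searched, which also included CCATAAA of CDX factors (2.43% of windows), CAAAGTCCA of HNF4 (0.384%), with their reverse complements, and the NF-kB site (4.65%). The windows were searched for letters only, and a match is not a bound site.

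Anxa1, Il1rn, Ly6a and Krt7 were expressed at higher levels in colon than in small intestine, with both GFP fractions of colon counted. Of the 4, Anxa1, which encodes annexin A1, a phospholipid-binding protein that dampens inflammation, differed most. Il1rn, the secreted and intracellular antagonist of the interleukin-1 receptor, and Ly6a, which encodes the surface antigen Sca-1, differed by more than an order of magnitude. Krt7, a keratin of simple epithelia, differed the least. With both colon fractions against small intestine, these 4 of the 7 members tested were called higher and 0 lower (edgeR, adjusted p under 0.05), where 8.79% of the 20610 genes tested were called, 5.0% higher and 3.79% lower. In these 4 the colon and small intestinal libraries did not overlap, as in 9.49% of all genes on the higher side and 8.39% on the lower side. The members' median log2 fold change was 1.29, against -0.00 over all genes tested. In colon GFP-high alone over small intestine 2 of the 7, Anxa1 and Il1rn, were called higher and 0 lower, where 5.69% of all genes were called, 3.94% higher and 1.75% lower. Msln and Ccn2 were too low to be tested.

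Anxa1 (ENSMUSG00000024659.16, chromosome 19, 20373428 to 20390944, minus strand, GENCODE M21 on GRCm38) was 174, 361 and 161 CPM in the GFP-high colon libraries (replicates 1 to 3), 362, 138 and 398 CPM in the GFP-negative ones and 1.04, 0.703 and 0.279 CPM in the small intestinal ones. The lowest colon library stood 132-fold above the highest small intestinal one. The log2 fold change was 8.62 ± 0.76 (SE) for both colon fractions (394-fold, adjusted p = 0.000484, edgeR) and 8.43 ± 0.77 for colon GFP-high alone over small intestine (346-fold, adjusted p = 0.000798). 1500015L24Rik, a noncoding gene that overlaps Anxa1 on the other strand, had at most 0.189 CPM. The strand setting of the counting is not known, so reads of the 2 cannot be told apart.

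Il1rn (ENSMUSG00000026981.16, chromosome 2, 24336853 to 24351494, plus strand) was 22.3, 100.2 and 29.7 CPM in the GFP-high colon libraries, 68.0, 18.8 and 110.0 CPM in the GFP-negative ones and 0.603, 0.781 and 1.46 CPM in the small intestinal ones. All 6 colon libraries lay above all 3 small intestinal ones, with a 12.9-fold gap between the nearest pair. The log2 fold change over small intestine was 5.92 ± 0.87 for both colon fractions (60.7-fold, adjusted p = 0.00454, edgeR) and 5.73 ± 0.89 for colon GFP-high (adjusted p = 0.00814). Counts per gene do not tell from which of its starts Il1rn was transcribed.

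Ly6a (ENSMUSG00000075602.11, chromosome 15, 74994877 to 74998031, minus strand) was 33.8, 390.0 and 83.4 CPM in the GFP-high colon libraries, 159.8, 104 and 825 CPM in the GFP-negative ones and 11.4, 2.85 and 1.61 CPM in the small intestinal ones. The groups did not overlap, but the colon libraries themselves spread 24.4-fold. Both colon fractions were 46.9-fold above small intestine (log2 fold change 5.55 ± 1.30, adjusted p = 0.0314, edgeR), and colon GFP-high alone missed the threshold (4.99 ± 1.30, adjusted p = 0.0626). The first call was lost in 7 of 19 alternatives, 5 of which left out 1 library: colon GFP-high replicate 3 (adjusted p = 0.0503), replicate 1 of colon GFP-negative (0.0536) or any of the 3 small intestinal libraries (0.0514, 0.117 and 0.120). The log2 fold change was 4.79 without colon GFP-high replicate 2, 4.82 without colon GFP-negative replicate 3 and 6.80 without small intestine replicate 1. Ly6a lies in a cluster of similar genes, and reads of near-identical copies may have been split among them.

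Krt7 (ENSMUSG00000023039.18, chromosome 15, 101411043 to 101430313, plus strand) was 617, 994 and 671 CPM in the GFP-high colon libraries, 803, 757 and 381 CPM in the GFP-negative ones and 271, 363 and 227 CPM in the small intestinal ones. The lowest colon library, GFP-negative replicate 3, stood 1.05-fold above the highest small intestinal one. The log2 fold change was 1.29 ± 0.32 for both colon fractions (2.44-fold, adjusted p = 0.041, edgeR) and 1.40 ± 0.36 for colon GFP-high (adjusted p = 0.0574). The call held in 9 of 19 alternatives. Leaving out any 1 library other than colon GFP-negative replicate 3 ended it, with adjusted p from 0.0551 without colon GFP-high replicate 1 to 0.172 without small intestine replicate 3, and leaving out both colon libraries numbered 2 ended it too (0.125). Gm671, an antisense gene that overlaps Krt7, had at most 1.61 CPM.

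**Figure D1:**
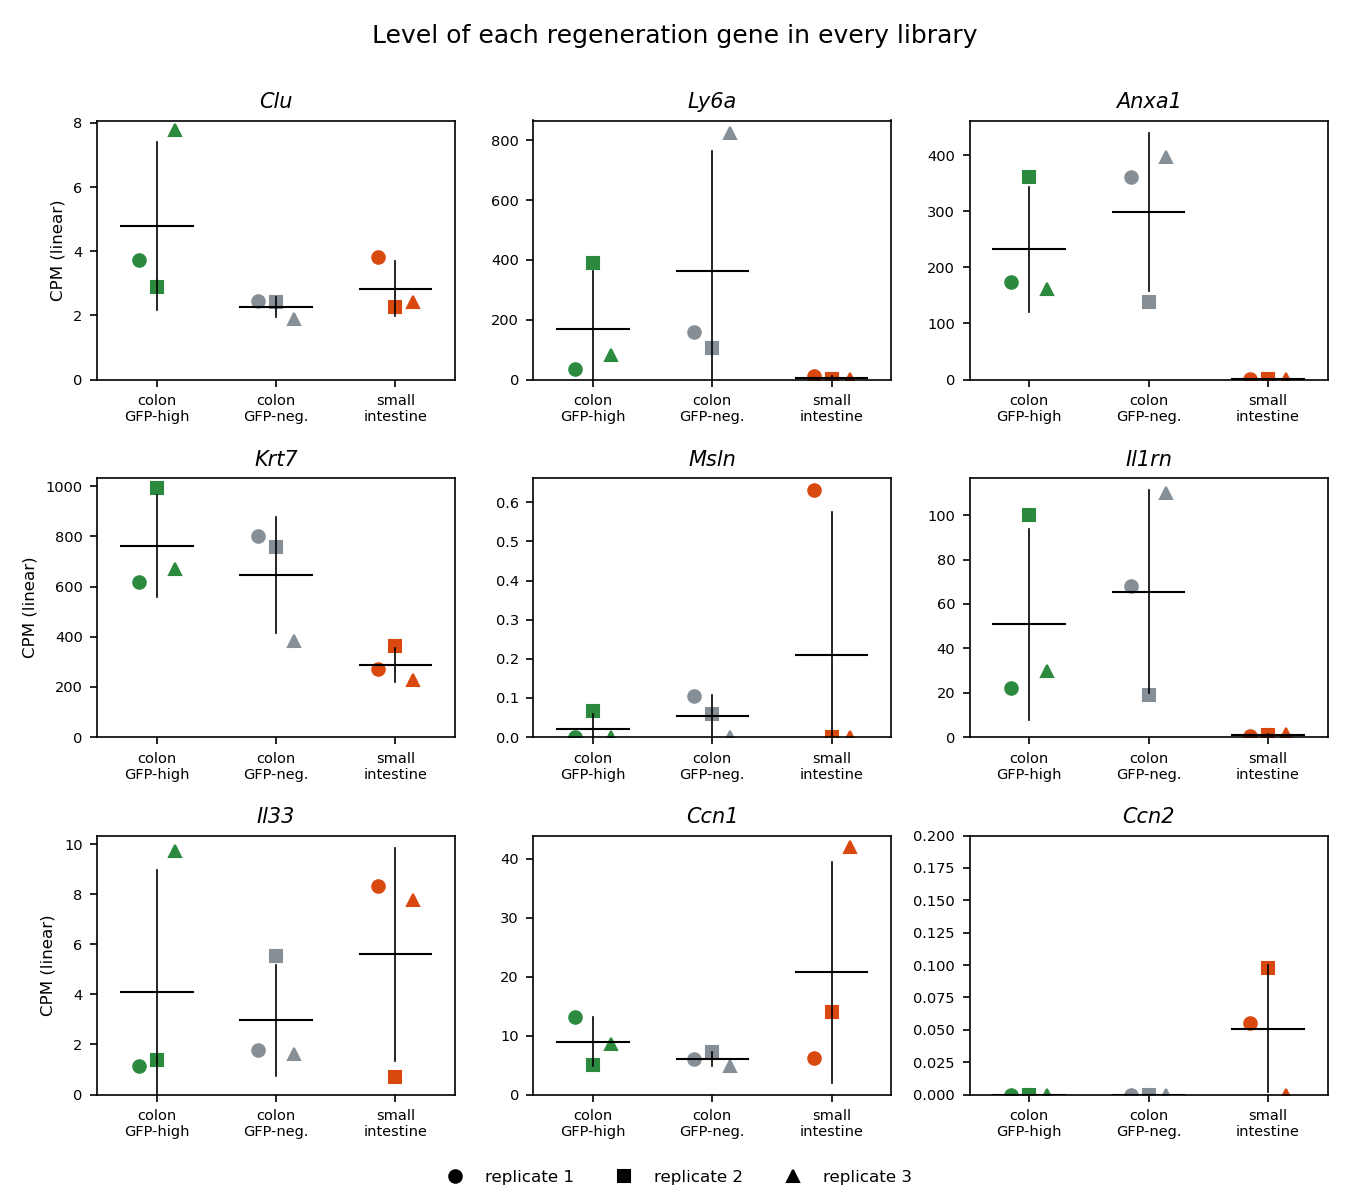
Level of each of the 9 genes in CPM on linear axes, 1 panel per gene, with a symbol per library, the group mean as a horizontal line and the SD as a vertical line that stops at 0 (n = 3 per group). Anxa1, Il1rn, Ly6a and Krt7 are higher in all 6 colon libraries than in all 3 small intestinal ones, and Msln and Ccn2 stay under 1 CPM.

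The other tested members, Il33, Clu and Ccn1, did not pass between colon and small intestine. Il33 (ENSMUSG00000024810.17, chromosome 19, 29925114 to 29960718, plus strand), which encodes a nuclear alarm cytokine, was 1.15, 1.39 and 9.72 CPM in the GFP-high colon libraries, 1.76, 5.52 and 1.61 CPM in the GFP-negative ones and 8.31, 0.683 and 7.79 CPM in the small intestinal ones. High and low libraries occurred in every group, and the log2 fold change of both colon fractions over small intestine was -0.69 ± 0.90 (adjusted p = 0.68, edgeR). Its sign turned when the tag in the library names was taken as a block (1.04 ± 0.55).

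Clu (ENSMUSG00000022037.16, chromosome 14, 65968483 to 65981547, plus strand) encodes clusterin, a secreted chaperone that marks the rare cells of the damaged mouse crypt known as revival stem cells. It was 3.74, 2.87 and 7.78 CPM in the GFP-high colon libraries, 2.46, 2.41 and 1.89 CPM in the GFP-negative ones and 3.81, 2.27 and 2.40 CPM in the small intestinal ones. The log2 fold change of both colon fractions over small intestine was 0.22 ± 0.41 (adjusted p = 0.787, edgeR), and it was -0.026 without colon GFP-high replicate 3, the library with the highest level.

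Ccn1 (ENSMUSG00000028195.5, chromosome 3, 145646976 to 145649981, minus strand), a matricellular protein, was 13.2, 4.96 and 8.59 CPM in the GFP-high colon libraries, 5.95, 7.20 and 4.86 CPM in the GFP-negative ones and 6.24, 14.1 and 42.0 CPM in the small intestinal ones. Small intestine replicate 3 was the highest library and replicate 1 lay among the colon libraries. The log2 fold change of both colon fractions over small intestine was -1.50 ± 0.53 (adjusted p = 0.121, edgeR; 0.046 in DESeq2, with the highest over all alternatives 0.641), and without small intestine replicate 3 it was -0.50.

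Msln and Ccn2 were at the limit of detection. Ccn2 (ENSMUSG00000019997.12, chromosome 10, 24595442 to 24598683, plus strand), the relative of Ccn1, had no count in the 6 colon libraries, where 3 counts over the group would make 0.00522 CPM. It had 14 counts in small intestine, at 0.0548, 0.0976 and 0 CPM in replicates 1 to 3. Msln (ENSMUSG00000063011.8, chromosome 17, 25748613 to 25754378, minus strand), which encodes mesothelin, a surface protein of the mesothelium, had 0, 0.0653 and 0 CPM in the GFP-high colon libraries, 0.104, 0.0598 and 0 CPM in the GFP-negative ones and 0.631, 0 and 0 CPM in the small intestinal ones. Upk3b, another mesothelial gene, was 1.29 CPM in small intestine replicate 1, where Msln was highest, and at most 0.223 CPM in the other 8 libraries.

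**Figure D2:**
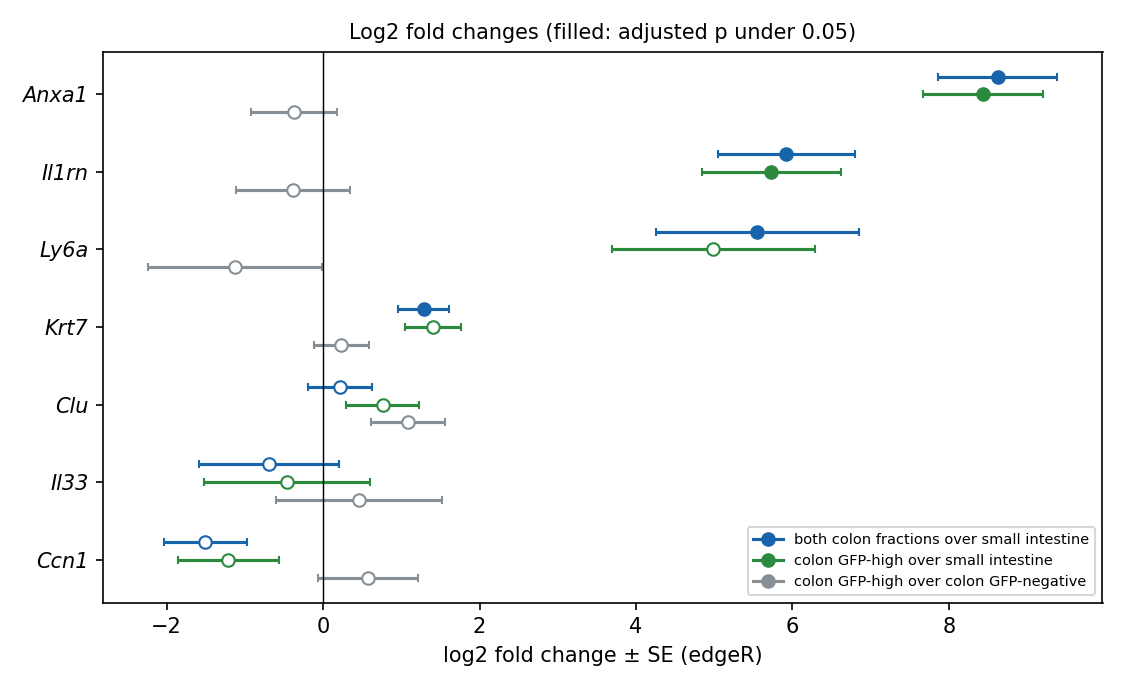
Log2 fold changes with their standard errors from edgeR for the 7 genes tested, in 3 comparisons marked by colour, with filled points where the adjusted p was under 0.05. Anxa1 and Il1rn are filled in both comparisons with small intestine, Ly6a and Krt7 in the one with both colon fractions, and no gene is filled between the colon fractions.

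The library names carry tags, some of which 2 or 3 libraries share, and the labels do not say what a tag stands for. Within tag 2_7_2 Anxa1 was 174 and 362 CPM in the colon GFP-high and GFP-negative libraries and 0.703 CPM in the small intestinal one, and within tag 30_5 it was 161 CPM in the GFP-high library and 0.279 CPM in the small intestinal one. For Il1rn, tag 2_7_2 held 22.3 CPM in its GFP-high library, 68.0 CPM in its GFP-negative library and 0.781 CPM in its small intestinal library, and tag 30_5 held 29.7 CPM in its GFP-high and 1.46 CPM in its small intestinal library. The direction of Ly6a and Krt7 was also that of all libraries in both tags, at 11.9-fold and 51.7-fold for Ly6a and 1.70-fold and 2.95-fold for Krt7 in colon GFP-high over small intestine. With the tag as a block, which leaves 2 residual degrees of freedom, none of the 7 members passed (adjusted p = 0.0876 for Anxa1 and 0.27 for Il1rn in both colon fractions over small intestine), and 18 genes were called in all. The log2 fold changes there were 8.79 for Anxa1 and 5.18 for Il1rn.

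Levels of different genes were set side by side in TPM, which is relative to the library as CPM is but also takes gene length into account. Ly6a, Krt7 and Anxa1 were the most abundant members in both colon fractions, with mean TPM of 290 ± 263, 260.5 ± 21.9 and 185 ± 33.8 (SD, n = 3) in colon GFP-high and 621 ± 674, 196 ± 76.2 and 211 ± 86.8 in colon GFP-negative. The ranges of these 3 overlapped in colon GFP-negative, and in colon GFP-high that of Ly6a overlapped the other ranges. Il1rn followed at 20.0 ± 11.3 TPM in colon GFP-high and 24.2 ± 16.2 TPM in GFP-negative. Ccn1 was next, at 11.8 ± 6.90 TPM in colon GFP-high and 6.38 ± 1.89 TPM in GFP-negative, and its range overlapped that of Il1rn. In small intestine the order differed, with Krt7 first at 98.6 ± 31.0 TPM, Ccn1 second at 29.6 ± 32.3 TPM and Anxa1 sixth at 0.504 ± 0.172 TPM.

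Between colon GFP-high and colon GFP-negative no member passed. All 7 tested had an adjusted p of 1, and 0% of the 20610 genes were called in edgeR (226 genes, or 1.1%, at an unadjusted p under 0.05, and 1 gene called in DESeq2 and 0 in limma-voom). The log2 fold changes were 1.09 ± 0.47 for Clu, 0.58 ± 0.64 for Ccn1, 0.46 ± 1.06 for Il33, 0.23 ± 0.35 for Krt7, -0.37 ± 0.55 for Anxa1, -0.38 ± 0.72 for Il1rn and -1.12 ± 1.11 for Ly6a. Only Clu had groups that did not overlap, with every GFP-high library above every GFP-negative one, as in 2.81% of all genes tested, with 1.59% the other way round. This rests on the labels of the pair numbered 2, in which the GFP-high library had 2.87 CPM and the GFP-negative one 2.41 CPM, against 2.46 CPM in GFP-negative replicate 1. The GFP-high libraries averaged 4.80 ± 2.62 CPM of Clu and the GFP-negative libraries 2.25 ± 0.319 CPM (SD, n = 3 each). Within the tags that hold both fractions, the ratio of GFP-high to GFP-negative lay on opposite sides of 1 for 3 members, at 0.480 in tag 2_7_2 and 2.62 in tag 27_6_1 for Anxa1, 0.327 and 5.33 for Il1rn and 0.211 and 3.74 for Ly6a, while for Clu it was 1.52 and 1.19. The pair of tag 27_6_1 is the one in which Lgr5 went against the labels. A missed threshold does not show equal levels at this spread.

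The colon libraries also split by their level of Lgr5. The 3 colon libraries with the least Anxa1, GFP-negative replicate 2 and GFP-high replicates 3 and 1, were the 3 with the most Lgr5. They are the libraries labelled GFP-high except in the pair numbered 2, where the library labelled GFP-negative takes the place of the one labelled GFP-high. Whether the labels of that pair are exchanged was not tested. The same 3 libraries had the least Il1rn and the least Ly6a of the colon. Anxa1 stood at 138 to 174 CPM in these and at 361 to 398 CPM in the other 3, and Il1rn at 18.8 to 29.7 CPM in these and 68.0 to 110.0 CPM in the others. Ly6a stood at 33.8 to 104 CPM in these and 159.8 to 825 CPM in the others. The share of all genes tested that split along this line was not counted, so the split cannot be called particular to these members. The summed markers of some cell types split along the same line, and those of tuft cells did not. In the 3 libraries with more Lgr5 against the other 3, the summed stem cell genes, Lgr5 among them, were 1282 to 1910 against 400 to 616 CPM. The goblet markers were 7476 to 17378 against 23393 to 46813 CPM and the absorptive markers 563 to 8220 against 10647 to 26082 CPM. The enteroendocrine markers were 154 to 667 against 3278 to 11867 CPM. The tuft markers overlapped, at 138 to 844 against 172 to 507 CPM. Single genes of these lists also departed from the sums. Among the colon libraries the goblet gene Spdef was highest in GFP-high replicate 1 and the goblet gene Spink4 in GFP-negative replicate 2. The absorptive genes Car4 and Aqp8 were highest in GFP-high replicate 3, and the enteroendocrine gene Gcg was lowest in GFP-negative replicate 3. The part of these cell types in the levels of Anxa1, Il1rn and Ly6a was not tested. Ccn1 went the other way, at 7.20 to 13.2 CPM in the 3 libraries with more Lgr5 and 4.86 to 5.95 CPM in the other 3. Clu and Il33 overlapped between these sets of libraries. Krt7 did not follow the split either, with its lowest colon level in GFP-negative replicate 3 and its highest in GFP-high replicate 2. Since these libraries were set apart by measured levels, no test was made between them. In small intestine, Lgr5 was highest and Anxa1 and Ly6a lowest in replicate 3, while Il1rn was highest there.

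**Figure D3:**
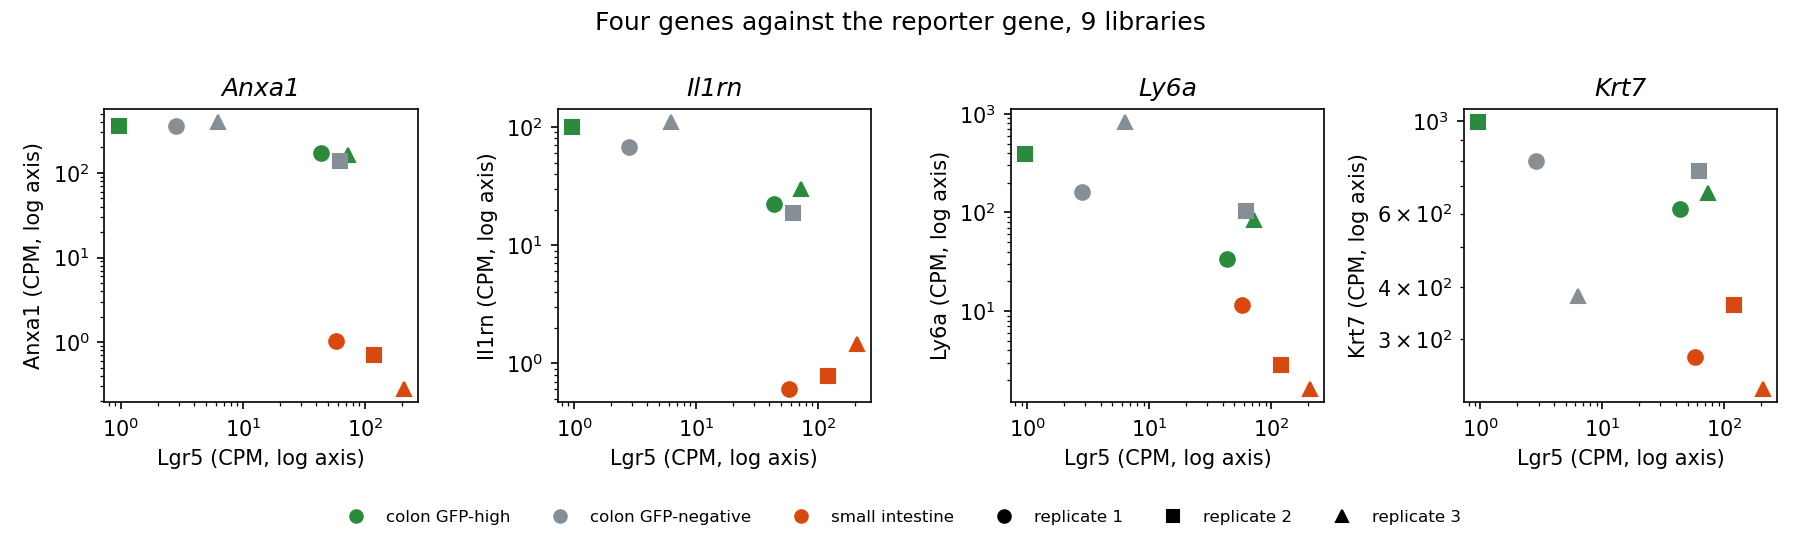
Levels of Anxa1, Il1rn, Ly6a and Krt7 against the level of Lgr5 in the 9 libraries, in CPM on log axes, with colour for the group and shape for the replicate. The colon libraries at 0.958 to 6.28 CPM of Lgr5 have more Anxa1, Il1rn and Ly6a than those at 43.5 to 73.0 CPM, and the small intestinal libraries lie below both for these 3 genes.

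Markers of leukocytes moved with Anxa1, Il1rn and Ly6a among the colon libraries. In bulk libraries, fewer cells of a type and less RNA per cell cannot be told apart. The summed level of 21 immune markers was 170.2, 475 and 136 CPM in the GFP-high colon libraries, 842, 104 and 3229 CPM in the GFP-negative ones and 64.7 to 85.5 CPM in the small intestinal ones. The 3 colon libraries with the highest sums, GFP-negative replicates 3 and 1 and GFP-high replicate 2, were also the 3 with the most Anxa1, Il1rn and Ly6a. Sca-1 is known on lymphocytes, and the interleukin-1 receptor antagonist in myeloid cells. In both colon fractions over small intestine the 21 markers had a median log2 fold change of 3.36, with 20 positive and 1 negative. The median over all genes tested was -0.00. In colon GFP-high over colon GFP-negative the median of the markers was -3.31, with 1 positive and 20 negative, and none was called. Of the 21 markers 1 was called in both colon fractions over small intestine, where 8.79% of all genes were. It was Cd14, a co-receptor for bacterial lipopolysaccharide, at 99.6 to 167 CPM in colon and 18.4 to 47.1 CPM in small intestine. In colon GFP-high replicate 1 Cd14 made 167 CPM of the sum, and the general leukocyte markers Ptprc and Coro1a were 0.916 and 0.954 CPM. In colon GFP-negative replicate 3 Ptprc was 89.7 CPM and Coro1a 492 CPM. When that library was left out, Anxa1, Il1rn, Ly6a and Krt7 were called in both colon fractions over small intestine, with sums of 842 and 475 CPM still in 2 of the colon libraries. The part of leukocytes in these levels was not tested.

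Markers of other non-epithelial cells were also summed. The 10 endothelial markers summed to 5.83 to 16.8 CPM over the 6 colon libraries and 13.3 to 23.8 CPM in small intestine, where Esam made the largest part. The 7 mesothelial markers summed to 9.27 to 27.1 CPM in colon and 1.70 to 14.6 CPM in small intestine. Upk1b made the largest part of that sum in every library, and all of the 19.1 CPM in colon GFP-high replicate 1. In both colon fractions over small intestine the 5 mesothelial markers tested had a median log2 fold change of -1.99, with 2 positive and 3 negative. The 13 stromal markers summed to 5.79 to 18.9 CPM in the GFP-high colon libraries, 4.41 to 59.7 CPM in the GFP-negative ones and 2.59 to 10.8 CPM in the small intestinal ones, with Vim making 55.7 of the 59.7 CPM in colon GFP-negative replicate 3. The 11 squamous and anal transition zone markers, of interest because Krt7 is a gene of that zone, summed to 2.42 to 3.75 CPM in the GFP-high colon libraries, 2.12 to 2.92 CPM in the GFP-negative ones and 5.95 to 14.7 CPM in the small intestinal ones. In small intestine Krt15 made 5.39, 11.3 and 14.6 CPM of the sum and was called lower in colon. The other 4 tested, Krt14, Krt13, Krt4 and Dsg3, had log2 fold changes of 1.89 to 3.59 in both colon fractions over small intestine, in the direction of Krt7, with adjusted p of 0.156 to 0.582 (edgeR) and no level above 1.65 CPM, and 4 of the 11 had no count in any library. The summed enteroendocrine markers reached 11867 CPM in colon GFP-high replicate 2, which also had the highest Krt7, against 484 to 667 CPM in the other GFP-high libraries and 154 to 3366 CPM in GFP-negative. Their part in the level of Krt7 was not tested.

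The interleukin-1 axis was read as ligands, receptors and inhibitors. Of 18 genes of the family, the members Il1rn and Il33 included, 11 were tested in both colon fractions over small intestine. Among these 3 were called, all higher, where 5.0% of all genes were called higher. They were Il1rn, Il1r1 and Sigirr. Il1r1, the signalling receptor that Il1rn blocks, was 9.81 ± 2.01 CPM in the GFP-high colon libraries, 11.8 ± 4.70 CPM in the GFP-negative ones and 0.18 ± 0.288 CPM in the small intestinal ones (SD, n = 3 each), a log2 fold change of 5.85 ± 1.35 (adjusted p = 0.0297, edgeR; called in 10 of 19 alternatives, with adjusted p up to 0.313). Without small intestine replicate 3, which held most of its small intestinal counts, the log2 fold change was 9.64 (adjusted p = 0.00504). Thus the receptor and its antagonist were both higher in colon. Il1rap, the shared co-receptor, was 6.33 ± 2.09 CPM in the 6 colon libraries and 10.6 ± 0.329 CPM in small intestine (-0.75 ± 0.33, adjusted p = 0.199). Il1rl1, the receptor for Il33, had 31 counts in colon GFP-high, none in colon GFP-negative and 2 in small intestine, at most 0.27 CPM in any library. Il1a and Il1b, the agonist ligands, were at most 0.17 and 13.4 CPM, the second in colon GFP-negative replicate 3.

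Annexins as a family were more often higher than lower in colon. Of 12 annexin genes 11 were tested, and 5 were called higher and 1 lower in both colon fractions over small intestine, where 5.0% and 3.79% of all genes were. Besides Anxa1 the higher ones were Anxa5 (log2 fold change 3.69 ± 0.47, adjusted p = 0.00248, edgeR), Anxa3 (5.02 ± 0.83, adjusted p = 0.00727), Anxa8 (5.37 ± 1.26, adjusted p = 0.0319) and Anxa7. Anxa7 had a log2 fold change of 0.97 and falls outside the naming rule. It was named after its values were seen. Anxa3 was 52.8 to 233 CPM in colon and 1.33 to 6.02 CPM in small intestine. Anxa13, an annexin typical of intestinal epithelium, was lower in colon (-2.52 ± 0.59, adjusted p = 0.0322), at 8.81 to 36.6 CPM in colon against 45.7 to 265 CPM in small intestine, and its fold change without small intestine replicate 1 was -1.43 (adjusted p = 0.159). That of Anxa8 was 5.98 without the same library (adjusted p = 0.0842). Anxa8 and Anxa13 passed in 10 of 19 alternatives each, and Anxa3 and Anxa5 in 18.

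The CCN family was uneven. Ccn3, a relative of Ccn1 and Ccn2 that is not among the members, was 252 to 1111 CPM in colon and 0.293 to 0.356 CPM in small intestine (log2 fold change 10.97 ± 0.63, adjusted p = 4.54e-05, edgeR; past the threshold in 18 of 19 alternatives, with adjusted p up to 0.0724). Of the 6 family genes 3 were tested, and Ccn3 was the 1 called, where 8.79% of all genes were. Ccn4 had no count in any library, and Ccn5 and Ccn6 were at most 1.03 and 0.536 CPM. Ccn1 and Ccn3 thus went opposite ways in sign, and Ccn1 did not pass. In the Ly6 family 2 of 9 genes tested, Ly6a and Ly6e, were called higher, where 5.0% of all genes were. Ly6e, a widely expressed relative, was 960 to 4457 CPM in colon and 399 to 882 CPM in small intestine (1.92 ± 0.50, adjusted p = 0.048, edgeR; called in 8 of 19 alternatives). Ly6d was 204 CPM in colon GFP-negative replicate 3, where Ly6a was 825 CPM, and at most 6.79 CPM in the other 8 libraries.

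**Figure D4:**
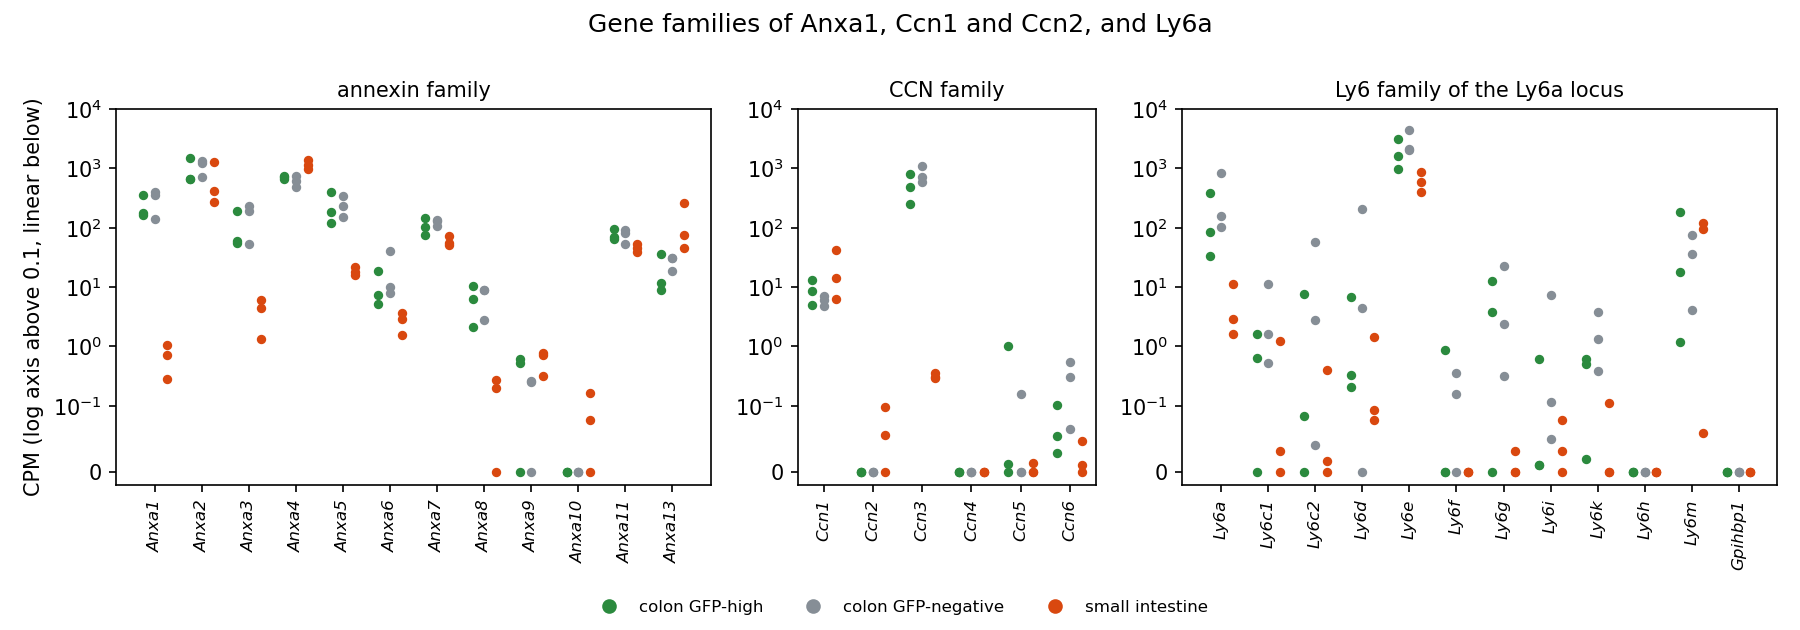
Levels of the annexin, CCN and Ly6 family genes in CPM, with 1 point per library, on an axis that is logarithmic above 0.1 and linear below. Anxa1, Anxa3, Anxa5, Ccn3 and Ly6a are separated between the colon groups and small intestine, whereas Ccn2, Ccn4, Ly6h and Gpihbp1 are at or near 0.

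Other genes of fetal-like and regenerating epithelium were higher in colon in part. Of 30 listed genes 29 were tested, and 7 were called higher and 0 lower in both colon fractions over small intestine, where 5.0% and 3.79% of all genes were. The median log2 fold change was 0.92, against -0.00 over all genes. The 6 with the lowest adjusted p were S100a11 (2.31 ± 0.30), Anxa5, Anxa3, S100a6 (5.43 ± 0.91), Gja1 (6.17 ± 1.22) and Plaur (3.19 ± 0.67), with adjusted p from 0.00246 to 0.0202 (edgeR). S100a6, a calcium-binding protein, was 361 to 1856 CPM in colon and 8.31 to 41.3 CPM in small intestine. Gja1, which encodes the gap junction protein connexin 43, was 1.68 to 6.18 CPM in colon and 0 to 0.137 CPM in small intestine. In colon GFP-high over small intestine 6 of the 29 were called higher, where 3.94% of all genes were. Without small intestine replicate 1 the log2 fold change of S100a6 was 6.55 and that of Gja1 7.70, and Gja1 was 5.56 without small intestine replicate 3. None of the 29 was called between the colon fractions. The lists share genes: Anxa3 and Anxa5 are also counted among the annexins above, and Ly6e of this list in the Ly6 family.

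Targets and regulators of YAP were also counted. Of 22 YAP and TAZ target genes, Ccn1 and Ccn2 included, 18 were tested, with 4 called higher and 1 lower in both colon fractions over small intestine and a median log2 fold change of 0.24. Over all genes tested 5.0% were called higher and 3.79% lower. The higher ones among the targets were F3, which encodes tissue factor (4.46 ± 0.66, adjusted p = 0.0045, edgeR), Ptpn14 (3.26 ± 0.57, adjusted p = 0.0093), Rbms3 (3.10 ± 0.73, adjusted p = 0.0322) and Myof (2.33 ± 0.56, adjusted p = 0.0343). The lower one, Nuak2, had a log2 fold change of -0.83 and was named after its value was seen. Ankrd1 and Foxf2 had no count in any library. Among 17 components of the Hippo pathway 1 was called, where 8.79% of all genes were. It was the YAP-binding angiomotin relative Amotl1 (2.62 ± 0.63, adjusted p = 0.0363, edgeR), which passed in 9 of 19 alternatives. Yap1 itself was 11.1 ± 2.08 CPM in the 6 colon libraries and 16.3 ± 1.23 CPM in small intestine (-0.55 ± 0.23, adjusted p = 0.17), and Wwtr1, which encodes TAZ, 1.83 ± 1.39 CPM in colon and 4.27 ± 2.16 CPM in small intestine (-1.34 ± 0.65, adjusted p = 0.237). Without small intestine replicate 1 the log2 fold change of F3 was 5.23, and without replicate 3 that of Rbms3 was 3.76 (adjusted p = 0.056). Rbms3 and Myof were called in 9 and 8 of 19 alternatives.

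Ccn1 is also an immediate early gene, one that cells switch on within minutes of stress or dissociation. Of 17 immediate early and stress genes, 1 was called higher in both colon fractions over small intestine and 0 lower, where 5.0% and 3.79% of all genes were. It was Nr4a1, an orphan nuclear receptor (4.48 ± 0.62, adjusted p = 0.00338, edgeR). Egr1 and Fos were highest in small intestine replicate 3, at 180.2 and 357 CPM, the library with the most Ccn1. Egr1 was 12.2 to 58.1 CPM in colon and 17.6 and 36.5 CPM in the other small intestinal libraries. Other genes of the list peaked elsewhere. Junb, Zfp36 and Btg2 were highest, and Fos second highest, in colon GFP-negative replicate 3, the library with the least Ccn1 (4.86 CPM). The part of these genes in the level of Ccn1 was not tested.

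The genes most like each member were those with the highest Pearson correlation of log2(CPM + 0.5) over the 9 libraries, among 10266 tested genes with a mean of at least 5 CPM. For Anxa1 they were Wfdc2, B3galt2 and Hoxa13, each at an r of 0.997. For Il1rn they were Cpq, Tlr1 and Serpinb5, at 0.986 to 0.990, and for Ly6a Tnni1, Sycn and Tmt1b, at 0.981 to 0.990. For Clu the nearest, Dab2ip, Duoxa2 and Duox2, reached 0.765 to 0.809. The values are descriptions over libraries that share tissue and tags.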

How the data were processed

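Sorted epithelial cells were sequenced as polyadenylated RNA. The authors aligned to mm10, and the tools named are STAR, Subread, featureCounts and edgeR, without versions, per the submitters' processing notes. For strand, multi-mapping and annotation release, the rule is not given in the sources used here. The authors deposited the raw read count of 78239 genes, with log2 CPM, log2 RPKM and log2 TPM values, gene lengths, library totals and a TMM factor per library, which is a ratio. Only counts, lengths, totals and factors were used. CPM is count over total times the deposited factor, and TPM was computed from count and length. Coordinates are those of GENCODE M21, matched by gene ID. Promoters came from RefSeq (GRCm38.p6).

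Genes were filtered with filterByExpr (20610 kept) and scaled by TMM within R 4.3.3. One edgeR 4.0.16 fit of all 9 libraries (glmQLFit, glmQLFTest, two-sided) gave 3 contrasts, with Benjamini-Hochberg adjustment over all genes tested, a threshold of 0.05, and a common biological coefficient of variation of 0.726. The fit was run on simulated independent counts, which hold no tags, exchanged labels or cell mixtures and so do not test these. Alternatives were DESeq2 1.42.0, limma 3.58.1 with voom, other scalings and filters, blocks and left-out libraries. Intervals and limits cover counting error only. Floors are 3 counts. Members, 19 other gene lists (247 of 248 symbols found) and alternatives were chosen with earlier results of these data known. All members are named. From other lists, called genes with a log2 fold change beyond 1 are named, up to 6 per list and contrast, with some receptors and relatives of members whatever their values. Sigirr, Anxa7, Nuak2, Ly6d, Egr1, Fos, Junb, Zfp36, Btg2, Il1a, Il1b, Ccn4, Ccn5, Ccn6, Ankrd1, Foxf2 and single marker genes were named after their values were seen. A pair of colon libraries numbered 2 was left out in 1 alternative because Lgr5 goes against their labels.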

Additional observations from a re-analysis of the deposited data

How the results depend on the processing

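Of the 7 members tested, Anxa1 and Il1rn stayed called in 18 of 19 alternatives for both colon fractions over small intestine, and in 19 of 20 for colon GFP-high over small intestine. The exception was the library name tag as a block. Members called in both colon fractions over small intestine, 4 in the analysis above, were 5 in DESeq2, which added Ccn1 as lower, 3 with the replicate block, 3 without the colon pair numbered 2, 0 with the tag block and 2 to 4 with single libraries left out. In colon GFP-high over small intestine, 2 above, they were 4 with total count scaling, with a filter of 1 CPM in 3 libraries and with DESeq2, 0 with the tag block and 2 to 4 with single libraries left out. All genes called in both colon fractions over small intestine (1812) were 3618 in DESeq2, 895 with the replicate block, 18 with the tag block, 1089 without the colon pair numbered 2 and 991 to 1787 with single libraries left out. In colon GFP-high over small intestine (1173) they were 2713, 508, 18, 508 and 564 to 1375 in the same order. Between the colon fractions DESeq2 called 1 gene and single libraries left out gave 0 to 0. Same-numbered libraries did not deviate together (correlations -0.60 to 0.30). With 3 libraries per group this cannot show whether they share an origin. The colon libraries numbered 1 share a tag, as do those numbered 2, and the main fit did not pair them. With the replicate block Ly6a was not called in both colon fractions over small intestine (adjusted p = 0.133), and Anxa1, Il1rn and Krt7 were.

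Some estimates within the spread turned sign. Between the colon fractions Il33 was -0.0090 in limma-voom, -0.27 with the replicate block and -1.31 with the tag block, where Ly6a was 0.051 and Anxa1 0.27. With single libraries left out it ran from -1.23 to 1.27, Ly6a from -2.64 to 0.36, Il1rn from -1.34 to 0.23 and Krt7 from -0.032 to 0.42. In colon GFP-high over small intestine Il33 was 0.39 with the tag block and -2.13 to 0.018 with single libraries left out. In both colon fractions over small intestine it was 1.04 with the tag block, and Clu ran from -0.026 to 0.49 with single libraries left out. The causes were not tested. Upper quartile scaling moved the median of all genes to 0.16 in both colon fractions over small intestine and to 0.22 in colon GFP-high over small intestine, and total count scaling to 0.13 between the colon fractions. With a pseudocount of 0.1 the genes most like Anxa1 were Sult1c2, Cbr2 and Wfdc2, and with 2 they were Wfdc2, Hoxa13 and Gna14.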
